A study of Homo sapiens with 4 samples.

Results

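The chamber identity regulators are 9 transcription factor genes that mark or maintain the difference between atrial and ventricular heart muscle. They were taken by name from the 23615 gene symbols of the deposited table, and all 9 were found. Of these, 7 are ventricular regulators (IRX1 to IRX6 and HEY2) and 2 are atrial regulators (NR2F1 and NR2F2). Poly-A RNA was sequenced at day 14 from unsorted cultures of the human embryonic stem cell line RUES2, with 2 biological replicates in each of 2 groups. The first group, called ECsXAV here, holds cardiac myocytes made through anterior hemogenic endothelium. Their induction used activin A (100 ng/ml) and BMP4 (5 ng/ml). On day 2 they were moved to an endothelial medium with VEGF, bFGF and further BMP4. From day 5 they were treated in RPMI medium with XAV-939 at 2 µM, a tankyrase inhibitor that lowers Wnt/β-catenin signaling. The second group, called CPC, holds cardiac myocytes made through cardiac progenitor cells with the same activin A and BMP4 induction doses. Its protocol stays in RPMI medium throughout, without the endothelial stage and its factors. The methods describe 1 µM XAV-939 on day 3 of this protocol for a subset of experiments. Both protocols are described with a small-molecule Wnt/β-catenin agonist before induction and, at 1 µM, together with BMP4. All 4 libraries come from 1 cell line. The labels name no differentiation run or batch, so a within-batch comparison was not made.

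The IRX (Iroquois) genes encode homeodomain transcription factors that lie in a pair of clusters of 3 genes each, and in the embryonic heart several of them are expressed in the ventricles. IRX4 is known for its restriction to ventricular myocardium, where it represses atrial genes, while IRX3 and IRX5 are known for roles in the conduction system and in ventricular repolarization. HEY2 is a basic helix-loop-helix repressor of the Notch pathway that is expressed in compact ventricular myocardium and holds back atrial genes. NR2F1 (COUP-TFI) and NR2F2 (COUP-TFII) are orphan nuclear receptors that mark atrial myocytes, are raised by retinoic acid and promote atrial genes.

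The values are FPKM, which scale the fragments of a gene by its exon length and by the mapped fragments of the library. The length scaling lets genes be set side by side. Between libraries, FPKM are shares of a total, and the main fit scaled them no further. Relative to ECsXAV replicate 1, the depth read from the step size of single reads was 50.1% for the other ECsXAV replicate and 86.9% and 79.8% for CPC replicates 1 and 2, while the total depth is unknown. Cardiomyocyte genes were high in every library, with 2309 to 2988 FPKM of TNNT2, the cardiac troponin T gene. Differences are given as CPC minus ECsXAV on the log2(FPKM + 1) scale from limma. Each p was adjusted by Benjamini-Hochberg over 12398 genes, those whose mean FPKM was at least 1. The criterion asked for a fold change over 2 at an adjusted p under 0.05.

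The stretches upstream of IRX1, IRX2, IRX4 and HEY2 are shown because these 4 genes had the lowest unadjusted p of the regulators, IRX1 and IRX2 with higher FPKM in the CPC libraries and IRX4 and HEY2 with higher FPKM in the ECsXAV libraries. Each is the 250 bases before the outermost RefSeq start, matched base for base to GRCh37 (hg19), the build of the study, and written 5′ to 3′ along the gene. Capitals mark any of the searched letters described after the sequences.
IRX1, chr5:3595696-3595945, plus strand: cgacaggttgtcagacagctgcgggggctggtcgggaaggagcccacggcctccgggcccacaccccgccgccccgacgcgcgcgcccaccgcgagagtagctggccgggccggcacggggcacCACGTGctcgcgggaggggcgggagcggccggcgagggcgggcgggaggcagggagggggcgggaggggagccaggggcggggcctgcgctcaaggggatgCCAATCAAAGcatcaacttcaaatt
IRX2, chr5:2751792-2752041, minus strand: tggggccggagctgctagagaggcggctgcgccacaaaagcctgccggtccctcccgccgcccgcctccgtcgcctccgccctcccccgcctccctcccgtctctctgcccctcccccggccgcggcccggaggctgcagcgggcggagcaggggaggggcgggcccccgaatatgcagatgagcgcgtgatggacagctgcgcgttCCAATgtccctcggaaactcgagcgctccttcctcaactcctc
IRX4, chr5:1887294-1887543, minus strand: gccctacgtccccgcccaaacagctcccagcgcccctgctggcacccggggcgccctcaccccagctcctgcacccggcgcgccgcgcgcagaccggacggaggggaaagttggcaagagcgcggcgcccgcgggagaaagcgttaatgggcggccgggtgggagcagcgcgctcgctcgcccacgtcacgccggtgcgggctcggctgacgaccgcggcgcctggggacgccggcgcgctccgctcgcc
HEY2, chr6:126070528-126070777, plus strand: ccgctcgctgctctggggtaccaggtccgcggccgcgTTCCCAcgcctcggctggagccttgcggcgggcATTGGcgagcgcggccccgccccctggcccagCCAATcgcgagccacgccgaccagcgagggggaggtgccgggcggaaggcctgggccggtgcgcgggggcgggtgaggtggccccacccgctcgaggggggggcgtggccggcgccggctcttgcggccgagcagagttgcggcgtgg

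The motifs searched on both strands were TGGGAA (RBPJ, the Notch effector), CACGTG (the E-box that HEY proteins can bind), ACANNTGT (an IRX palindrome) and AGGTCA (the nuclear receptor element). TCAAAG and its variant ACAAAG (TCF/LEF, the Wnt effectors) were searched too. AGATAA, bound by factors of the GATA family, and CCAAT completed the set. HEY2 held TGGGAA on its minus strand, from 213 to 208 bases before the start, letters that 20.8% of the 34788 RefSeq windows of the same length hold. IRX1 held CACGTG from 126 to 121 bases before the start, found in 6.31% of windows, and TCAAAG from 21 to 16 bases before it, found with ACAAAG in 22.8%. This TCAAAG overlaps a CCAAT that ends 21 bases before the start. IRX2 held a single CCAAT, from 43 to 39 bases before the start, and HEY2 held it once on each strand, beside 32.0% of all windows. IRX4 held none of these letters, in this window or in those of its other two RefSeq starts, and ACANNTGT, AGGTCA and AGATAA were in none of the 4 stretches. All 4 were rich in G and C, at 75.2%, 72.8%, 77.6% and 79.2% for IRX1, IRX2, IRX4 and HEY2, against a median of 58.0% over all windows. The table of promoters held windows for 6 of the regulators, and IRX3, IRX5 and IRX6 had none.

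The ventricular regulators were expressed far above the atrial regulators in all 4 libraries. The summed FPKM of the 7 ventricular genes was 88.2 and 98.9 in the ECsXAV replicates and 67.6 and 83.6 in the CPC replicates. The summed FPKM of NR2F1 and NR2F2 was 0.360 and 0.188 against 0.486 and 0.204. The ventricular genes thus made up 99.7% ± 0.15 (SD, n = 2) of the summed regulator FPKM in ECsXAV and 99.5% ± 0.33 (SD, n = 2) in CPC libraries. The share lies so close to its upper limit that it can show little of any difference in balance between the groups. Of the 9 regulators 6 reached the mean of 1 FPKM and were tested, and IRX6, NR2F1 and NR2F2 did not reach it.

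**Figure D1:**
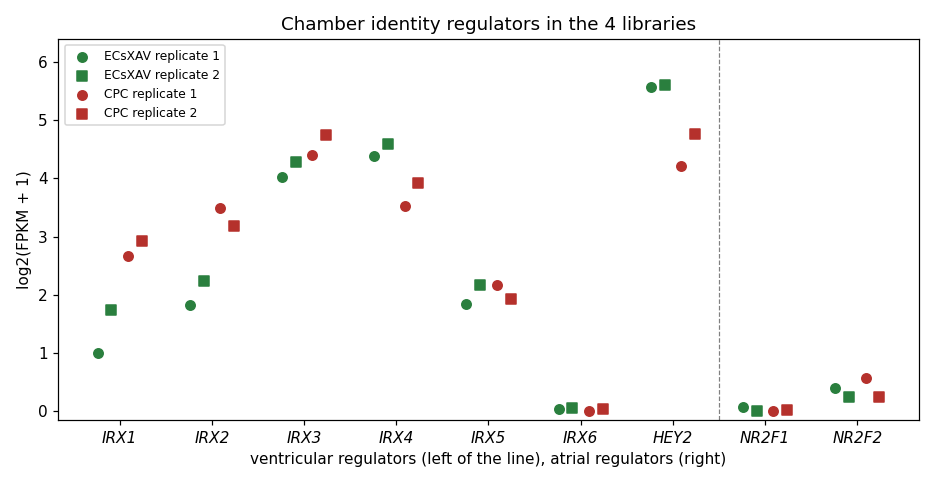
Level of each regulator in each library, as log2(FPKM + 1), with ECsXAV in green, CPC in red, circles for replicate 1 and squares for replicate 2. HEY2 and IRX4 sit higher in both green libraries, IRX1 and IRX2 sit higher in both red libraries, and IRX6, NR2F1 and NR2F2 lie near 0.

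HEY2 was the most abundant regulator in the ECsXAV libraries. The ECsXAV replicates had 46.8 and 47.6 FPKM of HEY2, and the CPC replicates had 17.6 and 26.2 FPKM. Both ECsXAV libraries were above both CPC libraries, with mean FPKM 2.15 times as high, and the CPC replicates were far less alike (SD 6.03 FPKM) than the ECsXAV replicates (SD 0.551 FPKM). Its log2 fold change was -1.10 (SE 0.20, 95% interval from -1.62 to -0.58, adjusted p = 0.0706 from limma), so HEY2 did not pass the criterion over all 12398 genes. In an unsorted culture, fewer cells that express a gene and less RNA per cell cannot be told apart. Set against TNNT2, HEY2 stood at 1.91% and 2.06% of the troponin FPKM in the ECsXAV replicates and at 0.655% and 0.876% in the CPC replicates. TNNT2 was itself higher in both CPC libraries, with a mean 1.19 times as high, which widens this gap. Of 8 cardiomyocyte markers, 2 were higher in both CPC libraries, 3 were higher in both ECsXAV libraries and 3 overlapped. The ratio thus depends on the marker chosen and is no measure of cardiomyocyte content.

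IRX4, the regulator most restricted to the ventricle, was second in the ECsXAV libraries. The ECsXAV replicates had 19.96 and 23.2 FPKM of IRX4, and the CPC replicates had 10.54 and 14.1 FPKM. The groups did not overlap, and the mean was 1.75 times as high in the ECsXAV libraries. The log2 fold change was -0.77 (SE 0.17, 95% interval from -1.22 to -0.33, adjusted p = 0.103 from limma), which did not pass. The single RefSeq transcript of IRX4 in the isoform table carried all of this signal. GENCODE places the antisense gene IRX4-AS1 inside IRX4, and the methods describe counting by strand for the read counts, which were not used here. Whether the FPKM used the strand too is not given in the sources used here, so IRX4 is uncertain to that extent.

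IRX1 and IRX2, the neighbours of IRX4 in the same cluster, had the opposite direction. For IRX2, the ECsXAV replicates stood at 2.56 and 3.73 FPKM and the CPC replicates at 10.25 and 8.09 FPKM. It was higher in the CPC libraries, with a log2 fold change of 1.3 (SE 0.20, 95% interval from 0.79 to 1.81, adjusted p = 0.0486 from limma). Its mean FPKM was 2.91 times as high, and it was the 1 regulator of 6 tested that passed. Over all genes tested, 2.15% passed the criterion, 0.71% with higher values in CPC and 1.44% with higher values in ECsXAV libraries. For IRX1, the ECsXAV replicates stood at 1.009 and 2.34 FPKM and the CPC replicates at 5.34 and 6.56 FPKM. Its groups did not overlap either, and its log2 fold change was 1.42 (SE 0.28, 95% interval from 0.70 to 2.13, adjusted p = 0.079 from limma), which did not pass. At an unadjusted p under 0.05 stood 4 of the 6 tested regulators (IRX1, IRX2, IRX4 and HEY2), against 18.2% of all genes tested.

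The IRX2 call lay close to the threshold. It was lost without a filter on low FPKM (adjusted p = 0.106 from limma), with a mean of at least 5 FPKM (adjusted p = 0.0675) and with quantile normalization (adjusted p = 0.0555), settings in which 0.107%, 1.84% and 1.65% of genes passed. It was also lost without ECsXAV replicate 1, ECsXAV replicate 2, CPC replicate 1 or CPC replicate 2 (adjusted p from 0.0973 to 0.154 in limma), where 1.29%, 1.03%, 0.478% and 0.685% of genes passed. One further fit, added with the data in view, left out short RNA genes (microRNA, small nucleolar and small Cajal body RNA). In it IRX1, IRX2 and HEY2 passed with adjusted p of 0.00854, 0.00426 and 0.00749 from limma, against 2.8% of all 12088 genes in that fit. IRX4 then had an adjusted p of 0.0232 and stayed below the fold change of 2.

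IRX3 was expressed at a level like that of HEY2 in the CPC libraries. The values of IRX3 were 15.3 and 18.6 FPKM in ECsXAV and 20.3 and 25.8 FPKM in CPC replicates. The groups did not overlap, but the gap between them was smaller than the spread within each group, and the log2 fold change of 0.42 (SE 0.17, 95% interval from -0.02 to 0.86, adjusted p = 0.292 from limma) did not pass. IRX5 had 2.57 and 3.49 FPKM against 3.52 and 2.80 FPKM, and its groups overlapped. Its log2 fold change was 0.05, with a 95% interval from -0.41 to 0.51, which leaves out a change of 2-fold in either direction. Of the 2 IRX5 transcripts in the isoform table, NM_005853 carried 99.8% to 99.99% of the gene in each library. Among the 6 tested regulators, 5 had groups that did not overlap, 3 higher in CPC and 2 higher in ECsXAV libraries. However, 49.8% of all genes tested were of this kind, 24.4% higher in CPC and 25.4% higher in ECsXAV libraries.

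**Figure D2:**
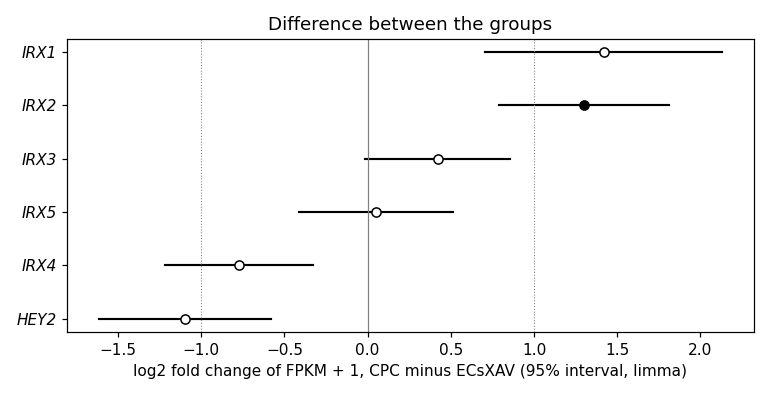
Log2 fold change of FPKM + 1, CPC minus ECsXAV, for the 6 tested regulators, with the 95% interval from limma as a line. The filled point, IRX2, passed the criterion, dotted lines mark a change of 2-fold, and IRX1 and IRX2 lie right of 0 while IRX4 and HEY2 lie left of it.

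The make-up of the IRX family differed more than its sum. The summed FPKM of the 6 IRX genes was 41.4 and 51.3 in the ECsXAV replicates and 49.9 and 57.4 in the CPC replicates, ranges that overlap. IRX4 made up 46.7% ± 2.17 (SD, n = 2) of this sum in ECsXAV and 22.8% ± 2.42 (SD, n = 2) in CPC libraries. IRX1 and IRX2 together made up 10.2% ± 2.27 (SD, n = 2) against 28.4% ± 4.03 (SD, n = 2). Both gaps were larger than the spread between replicates, while IRX5 stayed at 4.88% to 7.06% in all libraries. The share of IRX3 was 36.6% ± 0.53 (SD, n = 2) against 42.8% ± 3.11 (SD, n = 2). IRX4 had 7.80 and 6.21 times the FPKM of IRX2 in the ECsXAV replicates and 1.03 and 1.74 times in the CPC replicates. These shares are descriptions with no test, and they were chosen after the values were seen.

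**Figure D3:**
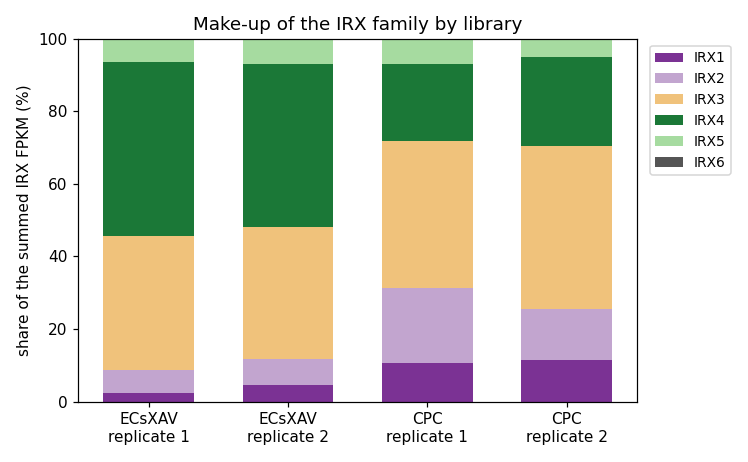
Share of each IRX gene in the summed IRX FPKM of each library, in percent. The IRX4 band covers 48.2% and 45.1% of the ECsXAV bars and 21.1% and 24.5% of the CPC bars, and the IRX1 and IRX2 bands are wider in the CPC bars.

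In order of mean FPKM, the regulators of the ECsXAV libraries ran HEY2, IRX4, IRX3, IRX2, IRX5, IRX1, NR2F2, IRX6 and NR2F1. The values of IRX2 and IRX5 overlapped, and the highest IRX1 value of 2.34 FPKM lay just under the lowest IRX2 value of 2.56 FPKM. In the CPC libraries the order began with IRX3, whose values overlapped those of HEY2, and went on with IRX4, IRX2, IRX1, IRX5 and NR2F2. The lower IRX4 value of 10.54 FPKM was close to the higher IRX2 value of 10.25 FPKM, so these neighbours lay within the spread of their replicates. HEY2 had 3.06 and 2.56 times the FPKM of IRX3 in the ECsXAV replicates and 0.870 and 1.013 times in the CPC replicates.

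Both atrial regulators stayed under 1 FPKM in every library, NR2F1 at the level of single reads. NR2F1 had 0.0453 FPKM in ECsXAV replicate 1 and 0.0189 FPKM in CPC replicate 2 and was listed at 0 in ECsXAV replicate 2 and CPC replicate 1. At the relative depth of the libraries, these FPKM equal steps of 3, 0, 0 and 1 reads in the order ECsXAV replicates 1 and 2 and CPC replicates 1 and 2, the smallest whole numbers that give them within 0.03 reads. NR2F2 had 0.315 and 0.188 FPKM in ECsXAV and 0.486 and 0.185 FPKM in CPC replicates, and the groups overlapped. Its RefSeq transcript NM_021005 carried 53.5% and 63.2% of the gene in the ECsXAV replicates and 60.9% and 99.98% in the CPC replicates, shares of a gene that is weakly expressed in all 4 libraries. IRX6 stood at steps of 1, 1, 0 and 1 reads in the same order of libraries, at 0.0212, 0.0424, 0 and 0.0266 FPKM. A difference in NR2F1 or IRX6 was not detectable at this depth, and no fold change is given. The antisense gene NR2F1-AS1 overlaps the first bases of NR2F1 in GENCODE, and NR2F2-AS1 overlaps the GENCODE gene of NR2F2. NR2F2-AS1 ends before the 2 NR2F2 starts that had promoter windows. NR2F2 has 4 RefSeq transcripts here, and whether the antisense gene overlaps any other start was not checked.

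Relatives of the atrial regulators were present. NR2F6, another receptor of the family, had 30.9 and 37.1 FPKM in ECsXAV and 26.3 and 35.0 FPKM in CPC replicates, at least 54.1 times the FPKM of NR2F2 in each library. ZFPM2 (FOG2), a cofactor that binds NR2F2 and GATA factors, had 6.64 to 8.02 FPKM, and ZFPM1 had 2.23 to 4.03 FPKM. None of these 3 genes passed the criterion in limma, and none had an unadjusted p under 0.05.

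The IRX4, IRX2 and IRX1 genes lie in this order on chromosome 5 of GRCh37, from 1877527 to 1887350, from 2745959 to 2751791 and from 3595946 to 3601517, with gaps of 858.6 and 844.2 kb. C5orf38 (IRX2-DT) is read in the opposite direction from IRX2, with GENCODE start sites 454 bases apart, and the stretch printed for IRX2 overlaps the RefSeq window of IRX2-DT. C5orf38 had 0.984 and 2.75 FPKM in ECsXAV and 5.82 and 4.85 FPKM in CPC replicates. Its groups did not overlap, and limma gave a log2 fold change of 1.21 (SE 0.32, adjusted p = 0.146). Its values were ordered like those of IRX2, with ECsXAV replicate 1 lowest and CPC replicate 1 highest. Outside the cluster, LPCAT1, MRPL36 and NDUFS6 had log2 fold changes of -0.14, -0.24 and -0.11, and ADAMTS16 was at no more than 0.113 FPKM. None of the 4 tested neighbours passed in limma, and 1, C5orf38, had an unadjusted p under 0.05. Within a single cluster, IRX4 thus had a difference of one sign and IRX2, C5orf38 and IRX1 of the other, of which IRX2 alone passed.

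The IRX3, IRX5 and IRX6 genes lie on chromosome 16, from 54317216 to 54320699, from 54964777 to 54968397 and from 55358115 to 55364668. FTO, whose introns are known to hold IRX3 enhancers, lies before IRX3 and had 12.5 and 11.7 FPKM in ECsXAV and 15.2 and 16.3 FPKM in CPC replicates, a difference of 0.35 in log2 units (limma, adjusted p = 0.184). CRNDE, a noncoding RNA gene that starts 1676 bases from IRX5 on the other strand, had 18.9 and 18.9 FPKM against 19.6 and 12.9 FPKM. MMP2, a matrix metalloproteinase gene 58.9 kb beyond IRX6, had 16.5 and 18.4 FPKM in ECsXAV and 6.83 and 7.81 FPKM in CPC replicates. Its log2 fold change was -1.15 (SE 0.12, adjusted p = 0.0268 from limma), and it was the 1 of 6 tested neighbours of this cluster that passed. HEY2 lies on chromosome 6 from 126068810 to 126082415, where the antisense gene HEY2-AS1 overlaps the first bases of the GENCODE gene and ends before the RefSeq start. None of its 4 tested neighbours passed in limma, and 1 of them, TPD52L1, had an unadjusted p under 0.05 and a log2 fold change of -0.49. The NR2F1 and NR2F2 genes lie on chromosome 5 from 92918928 to 92930317 and on chromosome 15 from 96869167 to 96883492. FAM172A, beside NR2F1, had a log2 fold change of 0.12, and MCTP2 and SPATA8, beside NR2F2, were below the filter.

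**Figure D4:**
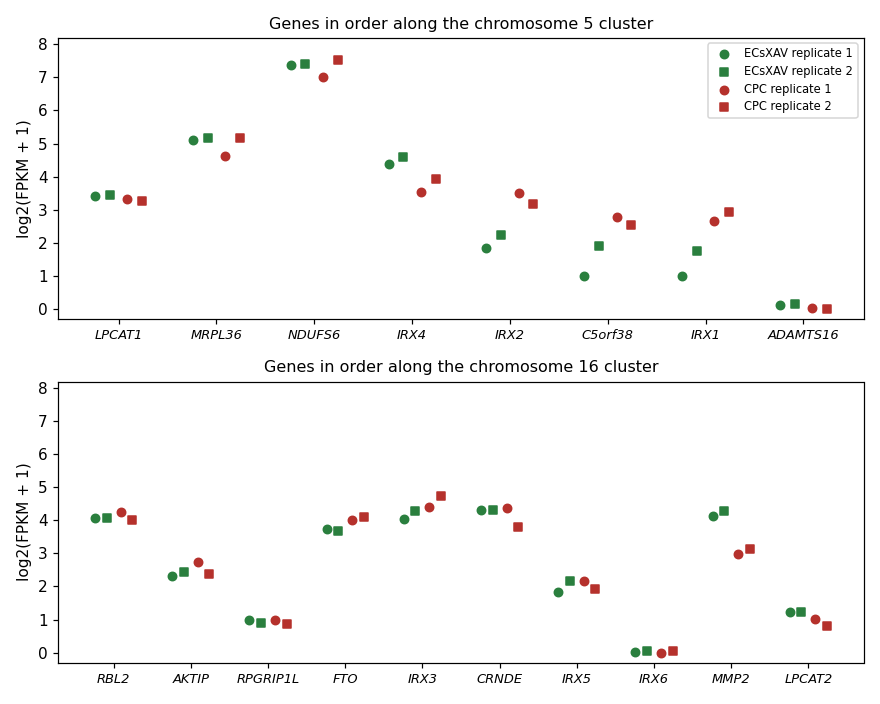
Levels of the genes in chromosomal order in each IRX cluster and beside it, as log2(FPKM + 1), with ECsXAV in green and CPC in red and distances not to scale. On chromosome 5, IRX4 is higher in both ECsXAV libraries while IRX2, C5orf38 and IRX1 are higher in both CPC libraries, and on chromosome 16 MMP2 is the gene with the widest gap between the groups.

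IRX2 was expressed as 2 RefSeq transcripts. NM_033267 had 1.44 and 2.87 FPKM in ECsXAV and 8.21 and 6.83 FPKM in CPC replicates, and NM_001134222 had 1.12 and 0.868 FPKM against 2.04 and 1.25 FPKM. The groups did not overlap for either transcript. NM_033267 made up 56.2% and 76.8% of the gene in the ECsXAV replicates and 80.1% and 84.5% in the CPC replicates, so the ECsXAV replicates differed from each other by more than ECsXAV replicate 2 differed from CPC replicate 1. The tested genes with the centred profile closest to IRX2 over the 4 libraries were HOXB2, a homeobox gene of the anterior HOXB cluster, GRIA4, a glutamate receptor subunit gene, and ZNF503, a zinc finger gene, at Euclidean distances of 0.188, 0.241 and 0.243 in log2 units. HOXB2 had 4.61 and 7.92 FPKM in ECsXAV and 17.9 and 15.04 FPKM in CPC replicates.

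The chamber genes that these factors are known to control were counted from lists without the regulators. Over all genes tested, 2.15% passed the criterion and 18.2% had an unadjusted p under 0.05. Of 7 tested ventricular chamber genes, 2 passed, both higher in ECsXAV libraries. An unadjusted p under 0.05 was reached by 6, of which 4 had higher ECsXAV values and 2 had higher CPC values. The 2 that passed were MYH7 and MYL2, which encode the slow myosin heavy chain and the regulatory light chain of ventricular muscle. MYH7 fell in the CPC libraries from 1011 and 931 FPKM to 147 and 194 FPKM (limma, log2 fold change -2.52, adjusted p = 0.0115). MYL2 fell from 53.9 and 45.1 FPKM to 7.04 and 9.92 FPKM (limma, log2 fold change -2.42, adjusted p = 0.0139). The 2 higher in CPC libraries were LBH and FHL2, named after their values were seen, with log2 fold changes of 0.60 and 0.50 that did not pass in limma. The list had a median of -0.87 beside one of -0.0045 over all genes tested. Of 10 tested atrial chamber genes, 1 passed, also higher in ECsXAV libraries, with a median over the list of -0.32. An unadjusted p under 0.05 was reached by 4, of which 3 had higher ECsXAV values and 1 had higher CPC values. The gene that passed was NPPA, the atrial natriuretic peptide gene, which is also expressed in embryonic ventricles. Its FPKM fell from 264 and 331 in the ECsXAV replicates to 26.1 and 32.4 in the CPC replicates (log2 fold change -3.30, adjusted p = 0.00605 from limma). GJA5, an atrial and conduction system connexin gene, had the next largest log2 fold change of the atrial list at -0.95 and did not pass. Named after their values were seen, the atrial potassium channel genes KCNA5 and KCNJ3, known NR2F targets, had 0.955 to 2.29 FPKM and 0.0131 to 0.0642 FPKM, and both overlapped between the groups. Of the 12 atrial genes listed, 7 were higher in both ECsXAV libraries, 1 was higher in both CPC libraries and 4 overlapped. Over all genes tested, these shares were 25.4% for ECsXAV and 24.4% for CPC. MYL4, MYL7, PAM and TBX5 were among the 7 and did not pass. The sarcolipin gene SLN had 1.54 and 2.39 FPKM against 3.34 and 6.10 FPKM.

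Notch genes, which act upstream of HEY2, showed no call at the criterion. Of 7 tested HEY relatives and Notch genes 0 passed in limma and 3 had an unadjusted p under 0.05, beside 2.15% and 18.2% of all genes tested. The median log2 fold change was -0.02. HEY1, the relative of HEY2 that is better known from the atria, had 12.4 and 12.2 FPKM in ECsXAV and 5.55 and 8.88 FPKM in CPC replicates, a difference of -0.73 in log2 units (limma, adjusted p = 0.176). HEY2 had 3.77 and 3.89 times the FPKM of HEY1 in the ECsXAV replicates and 3.18 and 2.95 times in the CPC replicates. JAG1, a Notch ligand gene, had a log2 fold change of 0.51 (limma, adjusted p = 0.149).

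Retinoic acid genes, which act upstream of NR2F1 and NR2F2, held a single call. Of 11 tested, 1 passed and 1 had an unadjusted p under 0.05, beside 2.15% and 18.2% of all genes tested. The median log2 fold change was 0.05. CRABP2, which carries retinoic acid to its receptors, rose in the CPC libraries from 56.2 and 59.6 FPKM to 147 and 163 FPKM (limma, log2 fold change 1.4 with an SE of 0.12, adjusted p = 0.0158). CYP26A1, which breaks retinoic acid down, had 0.683 and 0.376 FPKM against 0.798 and 2.63 FPKM. ALDH1A2, the main enzyme of retinoic acid synthesis in the embryo and named here after its values were seen, had 0.0451 and 0.0600 FPKM against 0.294 and 0.207 FPKM and was below the filter.

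**Figure D5:**
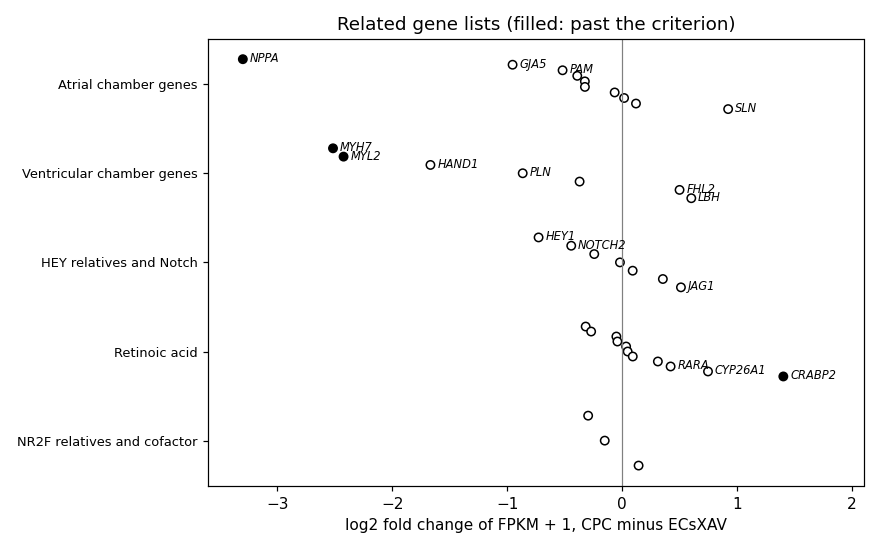
Log2 fold change of FPKM + 1, CPC minus ECsXAV, for the tested genes of 5 related lists, with the regulators left out, filled points for genes past the criterion and names for changes over 0.4 in size. MYH7, MYL2 and NPPA lie far to the left and CRABP2 to the right.

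The IRX, HEY and NR2F genes are also expressed outside heart muscle, and some markers of other cells moved with the groups. Stromal markers summed to 116 and 151 FPKM in ECsXAV and 64.95 and 54.5 FPKM in CPC replicates. Of 5 tested, 3 passed the criterion (COL1A1, COL3A1 and LUM), all higher in ECsXAV, beside 2.15% of all genes tested. Endoderm and liver markers summed to 33.4 to 41.4 FPKM against 16.6 to 18.7 FPKM, with AFP, APOA2 and TTR past the criterion of 4 tested. Of 11 paraxial mesoderm and skeletal muscle markers, 10 stayed under 1 FPKM in every library and PAX7, MYF5 and MYF6 were at 0, while UNCX, a homeobox gene of the somites and the 1 tested, passed the criterion and had 0.0972 and 0.129 FPKM against 6.27 and 4.71 FPKM. All 6 neural and neural crest markers stayed under 1 FPKM, with SOX1 and NEUROD1 at 0, and the list summed to 0.311 to 0.449 FPKM in ECsXAV and 0.346 to 0.581 FPKM in CPC libraries. Endothelial markers summed to 11.8 to 15.1 FPKM over all libraries, most of it KDR, with PECAM1 at no more than 0.233 FPKM. Of the 9 endothelial markers, 5 were higher in both ECsXAV libraries (CDH5, ESAM, TEK, CD34 and VWF), 1 was higher in both CPC libraries (EMCN) and 3 overlapped. Over all genes tested, 25.4% were higher in both ECsXAV libraries and 24.4% in both CPC libraries. VWF was at no more than 0.0209 FPKM, and TEK and CD34 stayed under 1 FPKM in every library. CDH5, the VE-cadherin gene, had 1.19 and 1.49 FPKM against 0.875 and 0.649 FPKM. Only 3 of these markers reached the filter, of which 0 passed in limma and 0 had an unadjusted p under 0.05. Epicardial markers summed to 1.67 to 1.78 FPKM against 0.470 to 0.568 FPKM. The 8 cardiomyocyte markers summed to 13861 to 14279 FPKM against 13242 to 13991 FPKM, and 1 of them passed, the α-myosin heavy chain gene MYH6, with 855 and 857 FPKM in ECsXAV and 2070 and 1901 FPKM in CPC replicates. The part of these other cells in the values of the regulators was not tested.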

How the data were processed

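The authors deposited FPKM per gene and per RefSeq transcript from poly-A libraries of unsorted day 14 cultures, computed with Cufflinks on hg19 with UCSC annotations. The methods name Gsnap and Cufflinks 2.1.1, and the submitters' processing notes name TopHat 1.3.3 and Cufflinks. No counts entered, so total depth is unknown and weakly expressed genes are least precise, above all in ECsXAV replicate 2.

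Of several rows of a symbol, the one of highest mean FPKM was kept. The test was limma 3.58.1 (R 4.3.3) on log2(FPKM + 1) with a trended variance prior. The fit was also run on simulated data with normal noise and capped variance, which cannot show its error rate in these libraries. The added 1 understates changes of weakly expressed genes. An exact permutation test of 2 against 2 libraries reaches p = 0.333 at the lowest (two-sided), so every p here borrows variance across genes. Coordinates came from GENCODE release 44 lifted to GRCh37, and promoters from RefSeq (GRCh38.p14), placed on GRCh37 by exact match.

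The regulators, lists and tests were chosen with earlier results of these data known. Named genes are the regulators, each list gene past the criterion, the 2 largest changes of each list, markers and the 3 profiles closest to a regulator that passed. Alternatives changed the pseudocount, filter, scaling, trend, replicate term, table and libraries.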

Additional observations from a re-analysis of the deposited data

How the results depend on the processing

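Fits without short RNA genes were added after seeing the data. The directions of IRX1, IRX2, IRX3, IRX4 and HEY2 were the same under every alternative that tested them. IRX5 had a log2 fold change of -0.11 without ECsXAV replicate 1 and of -0.076 without CPC replicate 1, with or without short RNA genes, and ranged from -0.11 to 0.21 with a library left out, against 0.05 with all 4.

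Of the regulators, 1 passed the criterion with limma, and 0 passed without a filter on low FPKM, with a mean of at least 5 FPKM, with quantile normalization and with the replicate block. In these settings 4 of 9, 3 of 4, 5 of 6 and 5 of 6 tested had an unadjusted p under 0.05, beside 17.7%, 17.8%, 19.4% and 22.1% of all genes. Leaving out any 1 library gave 0, with 4 to 5 of 6 at an unadjusted p under 0.05, beside 10% to 22.7% of all genes. The library left alone in its group is then assumed to vary like the other group. Without short RNA genes, 3 passed (IRX1, IRX2 and HEY2), without the replicate block or with it, and 3 when genes at 0 beside at least 5 FPKM were left out as well. In that order, 339, 346 and 340 of all genes passed. An unadjusted p under 0.05 was reached by 5 of 6 regulators in each, beside 20.7%, 27.6% and 21% of all genes. Without short RNA genes and 1 library, 2 to 3 passed. HEY2 was the one lost, without CPC replicate 1, at a log2 fold change of -0.83.

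Over all genes, 266 passed, against 20 without a filter, 152 with a mean of at least 5 FPKM, 176 with the replicate block and 59 to 159 with a library left out, or 352 to 399 when short RNA genes were left out too. In the block, replicate differences in log2(FPKM + 1) correlated across genes between the groups at a rank correlation of 0.356 and a Pearson correlation of 0.0349, but the 2 pairs share only a number, so the samples were not treated as paired. IRX2 had an adjusted p of 0.0835 from limma under it. With IRX4 and HEY2 alone against NR2F1 and NR2F2, the ventricular share in CPC libraries was 98.9% in place of 99.5%. For all of these settings, the cause was not tested.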
